A study of Rattus norvegicus with 35 samples.

Results

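Sex differences in the kidney cortex were measured in rats on a high potassium diet, by comparing messenger RNA of 6 male libraries with that of 5 female libraries. These are 11 of the 35 libraries of a study that asked how adding or removing dietary potassium affects hypertension that develops on salt. Genes on the X and Y chromosomes were set aside, and the 13824 genes located elsewhere that had an FPKM (fragments scaled to gene length and library size) of at least 1 in at least 5 libraries are described, of 14264 such genes in all. All rats were labelled as wild type, and the strain was not named in the labels. Every diet in the study held 4% NaCl. The high potassium diet (HK) held 1.41% potassium, the normal diet (NK) 0.36%, and the deficient diet (DK) was potassium deficient, with no value stated. Rats of both sexes received a blood pressure telemeter at 8 weeks of age, ate their diet for 5 weeks from a few days later, and gave the cortex of 1 kidney. There were 6 libraries for each sex on NK and on DK, which serve here only to show where the difference on HK departs from that on the other diets.

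The kidney differs between the sexes mainly in the proximal tubule, the segment that reabsorbs most filtered solute and secretes organic anions, cations and drugs. In rodents, androgens, estrogens and the sex-specific pattern of growth hormone release control many transporters, cytochrome P450 enzymes and steroid-metabolizing enzymes there, and the last of these also sets the male and female P450 patterns of rat liver. Further along the nephron, the distal tubule and collecting duct adjust sodium retention and potassium secretion under aldosterone. Renal potassium handling in rodents is known to differ between females and males.

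Recovered reads in genes were 14.4 to 20.9 M (mega-reads) in the HK libraries, with a median of 15.2 M. The sex labels were borne out by the Y-linked Eif2s3y, at 31.3 to 36.7 FPKM in the male libraries and at most 0.0362 in the female ones. Markers of the proximal tubule dominated, with 12 markers of its early segments summing to 3748 to 6619 FPKM, while 10 medullary markers summed to 19.0 to 34.1 FPKM. A single library stood apart. Male replicate 5 had 107 FPKM of Havcr1, the tubular injury marker KIM-1, against 24.9 to 30.4 in the other males, and 113 FPKM of Lcn2, the injury marker NGAL, against 25.2 to 36.6. It had the lowest FPKM of the male libraries for 15 of the 15 genes with the largest male-higher differences, the lowest median correlation with its group (0.968) and the lowest fitted weight (0.51). List counts that moved by over 1.5 times without it are given beside the counts. No label states that the libraries are from different animals, so the p-values cover the spread among these samples alone. In bulk tissue, fewer cells of a type and less RNA per cell cannot be told apart.

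On HK, 1372 of the 13824 genes differed between the sexes, or 9.92% (limma, Benjamini-Hochberg adjusted p under 0.05, called below). Of these, 553 were higher in males (4.00%) and 819 higher in females (5.92%). Most differences were small, with a median size of 0.56 on the log2 scale. Differences are given as males minus females throughout, so that values below 0 are higher in females. Those over 2-fold numbered 98 in the male and 162 in the female direction, and those over 4-fold 23 and 49. In 434 genes every male library lay above every female library (3.14%), and in 690 every female library lay above every male one (4.99%). The direction was uneven with level. Among the 5910 genes with 10 to 100 FPKM in the higher group, 501 were higher in females and 233 in males, whereas among the 4939 genes with 2 to 10 FPKM, 176 were higher in females and 232 in males. Female replicate 5 carried the count most: without it 817 genes were called, 316 higher in males and 501 in females. At the edge of the threshold, Ckmt1b was just inside, at 34.7 ± 3.09 FPKM in males and 49.0 ± 7.87 in females, and Tgfbrap1 just outside, at 12.9 ± 1.15 and 10.6 ± 0.642 (SD, n = 6 and 5).

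Among the genes with the largest differences in the male direction were several transporters and oxidizing or reducing enzymes. Dhrs7l1, a short-chain dehydrogenase/reductase gene, ranged from 54.1 through a median of 128 to 196 FPKM in males, and was at 0.235, 0.101, 0.732, 0.484 and 0.194 FPKM in the 5 females. The groups lay far apart, and the difference was 7.08 on the log2(FPKM + 0.5) scale (SE 0.34, adjusted p = 5.3e-17), or 135-fold. Slco1a1, an organic anion uptake carrier of the brush border, ranged from 12.8 through 53.0 to 89.9 FPKM in males, and was at 0.103, 0.122, 0, 0.0836 and 0.0293 FPKM in females. Its difference was 6.25 (SE 0.40), and its lowest male, replicate 5, was still far above all females. Slc22a22, a prostaglandin-carrying organic anion transporter, was at 33.5 ± 9.20 FPKM in males and 0.299 ± 0.314 in females (SD), a log2 difference of 5.43. Slc51b, a subunit of the basolateral bile acid and steroid exporter, was at 73.3 ± 17.4 and 3.37 ± 1.01 FPKM, a difference of 4.26.

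Cytochrome P450 genes made up 4 of the 15 largest male-higher differences. Cyp2c11, the main male-specific P450 of rat liver, ranged from 1.28 through 9.80 to 19.2 FPKM in males, and had 1 read in all 5 females together against 1785 in males. Scaled for library size, the ratio was 1360-fold, with a 95% exact interval of 244 to 53730 that covers counting error only. Cyp2c13, Cyp2d3 and Cyp2d5, further liver-type P450s, differed by 5.01, 4.25 and 4.14 on the log2 scale, and no male library of these overlapped a female one. These genes belong to families of near-identical copies, so reads may be divided between members and each value is uncertain to that extent. The aldo-keto reductase Akr1c12l1 was at 129 ± 50.2 FPKM in males and 6.36 ± 1.58 in females.

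The other large male-higher genes had varied roles. Gc, the vitamin D-binding protein, was at 18.8 ± 10.3 and 0.541 ± 0.332 FPKM. Mbl1, a mannose-binding lectin that starts complement, was at 8.08 ± 3.44 and 0.484 ± 0.326 FPKM. Gng7, a G protein subunit, and Gucy1b2, a subunit of soluble guanylate cyclase, differed by 3.27 and 2.25 on the log2 scale. Cacng5, a calcium channel subunit family member, was the only gene of the 15 whose libraries overlapped, with 2.41 FPKM in male replicate 5 and 4.86 FPKM in the highest female. Without that male its difference went from 2.68 to 3.17. The 15 were chosen by their difference in these same libraries, and 3.14% of all genes had every male above every female. Agt, the precursor of all angiotensins, completed the set and is described with its pathway.

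**Figure D1:**
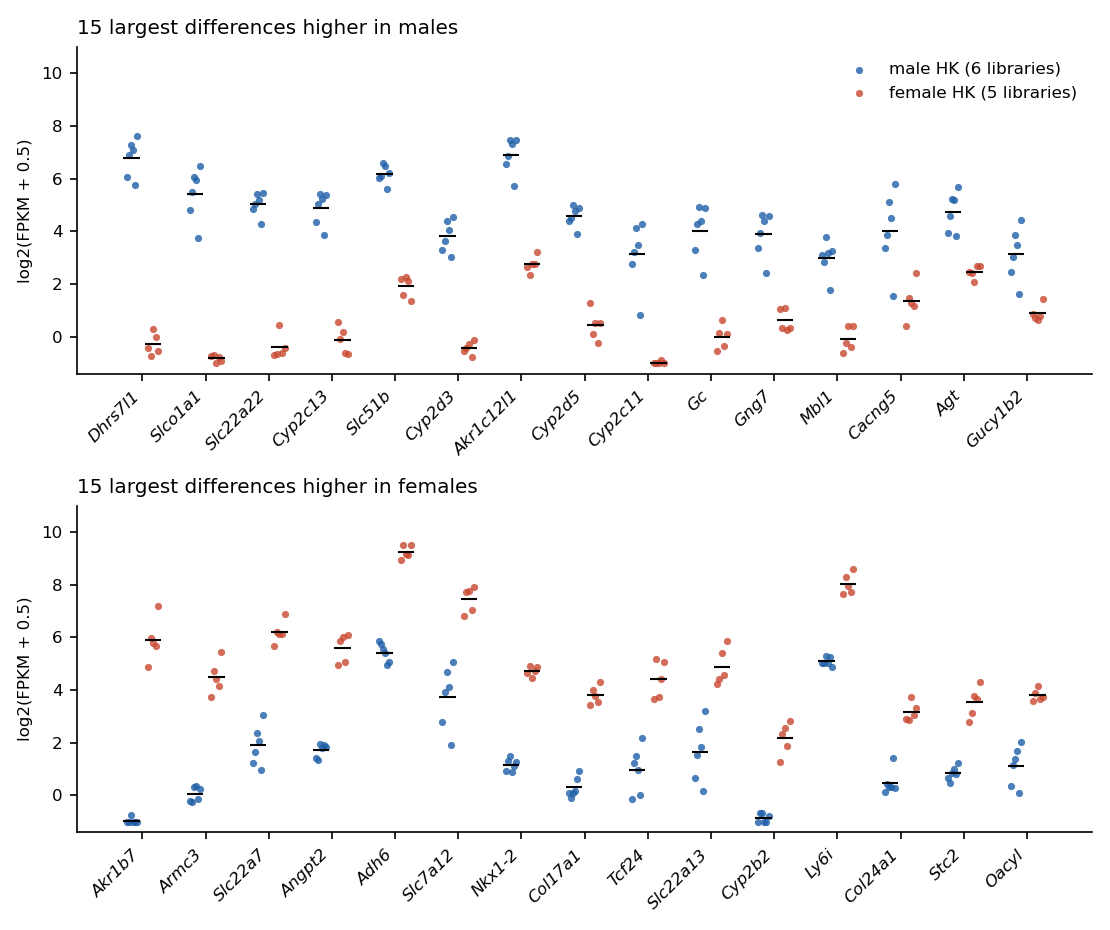
Levels of the 30 genes with the largest sex differences on HK, 15 in each direction, as log2(FPKM + 0.5). Each point is 1 library, 6 male and 5 female, and each bar a group mean. In 29 of the 30 genes the sexes do not overlap, and in Cacng5 they do. The genes were chosen by their difference in these same libraries, and over all genes tested 8.13% did not overlap.

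Female-higher genes covered a solute carrier set, alcohol and aldehyde metabolism, secreted factors and transcription factors. Akr1b7, an aldo-keto reductase known from the adrenal cortex and vas deferens, was at 29.0, 62.3, 53.9, 50.3 and 145 FPKM in the females, and had no read in 5 of the 6 males and 2 reads in replicate 3. The ratio of reads, scaled for library size, was 4856-fold (95% exact interval 1344 to 40110, counting error only). Slc22a7, the organic anion transporter OAT2 of the straight proximal tubule, was at 50.1, 72.9, 69.7, 69.6 and 119 FPKM in females, and ranged from 1.47 through 3.14 to 7.88 FPKM in males. All females lay above all males, with a log2 difference of -4.31 (SE 0.38, adjusted p = 3.7e-10). Adh6, an alcohol dehydrogenase, was the most abundant of the female-higher set at 612 ± 106 FPKM in females and 43.3 ± 10.7 in males, a difference of -3.82. The amino acid carrier Slc7a12 was at 182 ± 56.5 FPKM in females and 16.6 ± 11.3 in males, and Slc22a13, a urate and nicotinate transporter, at 32.2 ± 16.8 and 3.50 ± 2.98.

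Several female-higher genes encode signals or regulators. Angpt2, a ligand of the endothelial receptor Tie2, was at 50.4 ± 17.6 FPKM in females and 2.83 ± 0.561 in males. Stc2, the glycoprotein hormone stanniocalcin 2, was at 11.8 ± 4.95 and 1.3 ± 0.327 FPKM. The homeobox gene Nkx1-2 was at 25.9 ± 3.34 and 1.76 ± 0.371 FPKM, and the helix-loop-helix factor gene Tcf24 at 22.7 ± 10.81 and 1.75 ± 1.34. The collagen genes Col17a1 and Col24a1 had log2 differences of -3.51 and -2.70. Armc3, Ly6i, Cyp2b2 and Oacyl completed the 15, with female means of 23.9, 269, 4.32 and 13.6 FPKM against male means of 0.551, 33.5, 0.0571 and 1.90. In none of the 15 did the sexes overlap, beside 4.99% of all genes with every female above every male. The 15 were chosen by their difference in these same libraries. Female replicate 1 was the lowest female library in 13 of these 15 genes and replicate 5 the highest in 10.

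Promoters of the largest differences are shown because both hormone receptors and growth hormone signalling act through known DNA motifs. RefSeq (GRCr8) promoters of 300 bases, 250 before and 50 after the start, matched 26 of the 30 genes by symbol. The hexamer AGAACA, bound by the androgen and glucocorticoid receptors, or its reverse complement TGTTCT, was present in 6 of 14 promoters of male-higher genes (Cyp2c11, Cyp2c13, Slco1a1, Dhrs7l1, Slc22a22 and Cacng5) and in 3 of 12 of female-higher genes (Nkx1-2, Slc7a12 and Akr1b7), and in 20.7% of all 33469 promoters of that length. The palindrome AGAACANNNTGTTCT was in none of the 26 and in 0.0149% of all. The STAT5 motif TTCNNNGAA, its own reverse complement, was in the Akr1c12l1 promoter alone and in 8.87% of all. A match describes letters and is no evidence of binding. The promoters of the 2 largest matched differences in each direction follow, 5′ to 3′ in the direction of the gene, with the hexamer on either strand in capitals. They lie at chr6:97047850-97048149, minus strand (Dhrs7l1), chr4:176681943-176682242, minus strand (Slco1a1), chr4:64043720-64044019, plus strand (Akr1b7), and chr9:22045248-22045547, plus strand (Slc22a7, which has no match).
Dhrs7l1: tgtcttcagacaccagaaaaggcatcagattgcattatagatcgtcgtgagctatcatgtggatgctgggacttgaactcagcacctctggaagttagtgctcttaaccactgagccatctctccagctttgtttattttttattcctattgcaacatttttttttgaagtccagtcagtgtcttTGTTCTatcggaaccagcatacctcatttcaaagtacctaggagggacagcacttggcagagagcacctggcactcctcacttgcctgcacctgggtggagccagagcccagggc
Slco1a1: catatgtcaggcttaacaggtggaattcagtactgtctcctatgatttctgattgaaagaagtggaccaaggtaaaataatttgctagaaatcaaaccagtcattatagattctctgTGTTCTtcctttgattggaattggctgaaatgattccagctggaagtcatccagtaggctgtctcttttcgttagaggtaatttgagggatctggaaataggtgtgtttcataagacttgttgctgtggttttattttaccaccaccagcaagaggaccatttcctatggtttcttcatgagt
Akr1b7: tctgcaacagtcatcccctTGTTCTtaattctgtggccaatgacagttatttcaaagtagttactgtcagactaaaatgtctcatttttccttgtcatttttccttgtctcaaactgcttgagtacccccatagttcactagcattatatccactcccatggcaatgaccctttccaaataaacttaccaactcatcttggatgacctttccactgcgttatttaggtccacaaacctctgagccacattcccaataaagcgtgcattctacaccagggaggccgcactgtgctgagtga
Slc22a7: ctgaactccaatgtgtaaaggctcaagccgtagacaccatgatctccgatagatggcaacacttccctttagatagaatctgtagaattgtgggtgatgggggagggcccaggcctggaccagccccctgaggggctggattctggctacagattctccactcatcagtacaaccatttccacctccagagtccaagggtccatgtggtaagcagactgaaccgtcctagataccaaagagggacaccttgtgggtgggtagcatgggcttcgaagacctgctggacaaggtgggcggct

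Genes of xenobiotic handling were called in both directions, beside 9.92% called over all genes. Of 33 cytochromes P450 tested, 10 were higher in males, 8 higher in females and 15 did not pass, and the list's median difference was -0.02, against 0.00 over all genes. Of 24 organic anion and cation transporters, 4 were higher in males and 4 in females, with Slco1a1 and Slc22a22 on one side and Slc22a7 and Slc22a13 on the other. Without female replicate 5, the transporter calls were 2 and 3. The renal organic cation transporter Slc22a2 was at 156 ± 62.9 FPKM in males and 80.2 ± 12.2 in females (difference 0.85, adjusted p = 0.031), a call lost without any of 6 single libraries, with an adjusted p up to 0.0923. Of 40 conjugating enzymes, 7 were higher in males and 7 in females, or 6 and 4 without male replicate 5, and 4 and 4 without female replicate 5. Among them, Acsm5, a medium-chain acyl-CoA ligase gene, was at 5.02 ± 1.17 FPKM in males and 21.6 ± 4.36 in females, and the glucuronosyltransferase Ugt1a8 at 23.6 ± 2.49 and 59.0 ± 17.3. Of 23 ABC transporters, 4 were higher in males and 3 in females. Abcg2, which exports urate and drugs, was at 50.8 ± 9.45 FPKM in males and 28.8 ± 2.75 in females, with no overlap.

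The symbol Cyp4a2, a fatty acid hydroxylase that makes the vasoactive lipid 20-HETE, belonged to 2 gene entries that went opposite ways. The entry ENSRNOG00000030154 stood at 1368 ± 97.5 FPKM in males and 568 ± 130 in females (2.46-fold, adjusted p = 4.7e-07). The entry ENSRNOG00000009741 stood at 102 ± 10.2 FPKM in males and 262 ± 46.5 in females (difference -1.35, adjusted p = 2.6e-06). Neither overlapped between the sexes. Reads of such near-identical genes may have been assigned to either, so the split is uncertain. The related Cyp4a1 was at 28.3 ± 4.33 FPKM in males and 63.6 ± 26.4 in females.

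**Figure D2:**
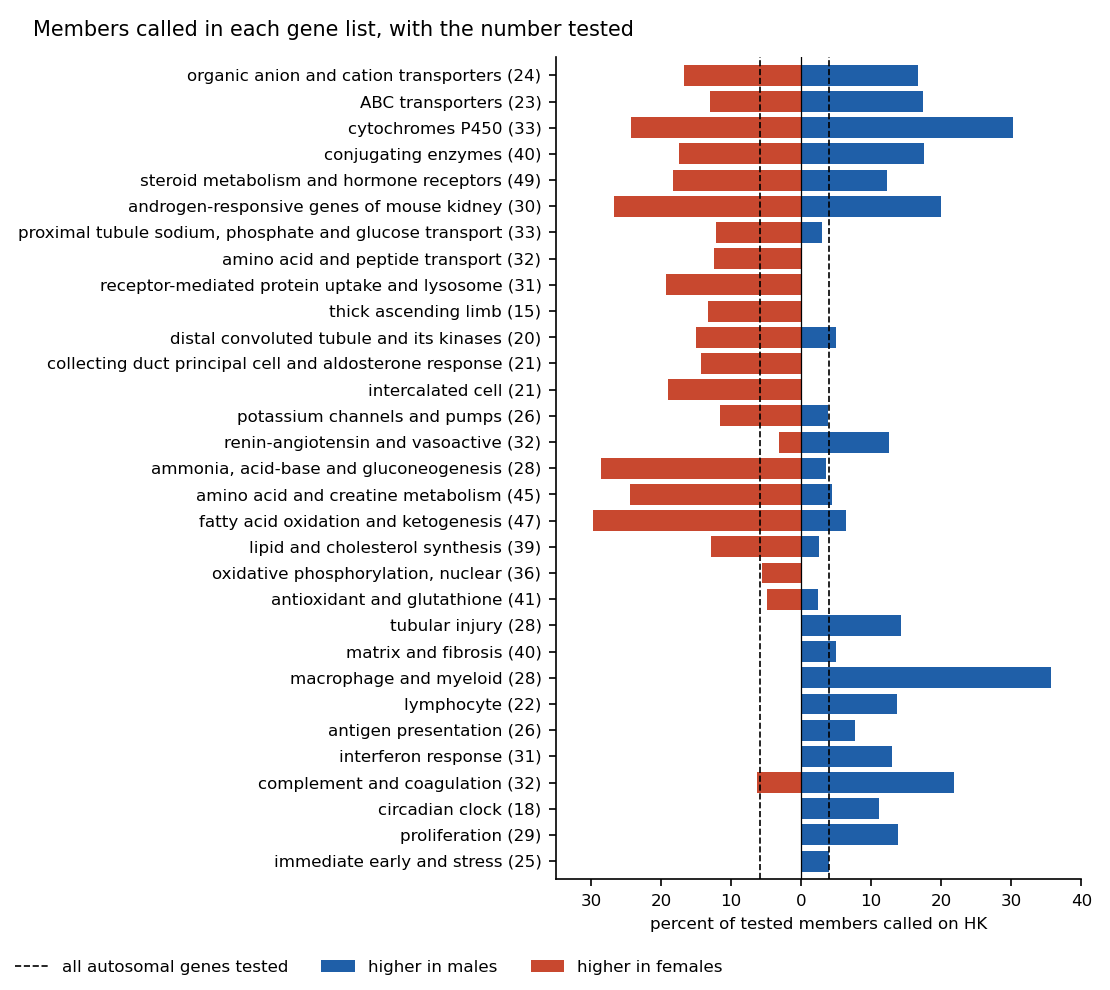
Share of tested members of 31 gene lists that were called on HK, higher in females to the left and higher in males to the right, with the number tested in brackets. Dashed lines mark the shares over all 13824 genes, 5.92% and 4.00%. Lists of P450s, organic ion transporters and ABC transporters extend on both sides, fuel metabolism lists mainly to the left and immune lists mainly to the right.

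Hormone receptors and steroid enzymes also differed. Prlr, the prolactin receptor, ranged from 14.1 through 30.9 to 50.4 FPKM in males, and was at 6.07, 5.44, 7.75, 5.25 and 4.79 FPKM in females. The groups did not overlap (difference 2.24, SE 0.30, adjusted p = 1.6e-06). Esr1, the estrogen receptor alpha, ranged from 3.51 through 8.13 to 14.1 FPKM in males, and was at 2.26, 2.87, 4.07, 2.81 and 2.39 FPKM in females. It was higher in males by 1.32 (adjusted p = 0.00044), and male replicate 5 lay below the highest female. Hsd11b1, which regenerates active glucocorticoid, was at 103 ± 15.3 FPKM in males and 52.7 ± 9.30 in females. Hsd11b2, which inactivates glucocorticoid in aldosterone target cells, went the other way, at 181 ± 19.1 and 257 ± 31.3 FPKM (adjusted p = 0.043). Its call was lost without any of 7 single libraries, with an adjusted p up to 0.117. Igf1 was at 2.66 ± 0.395 FPKM in males and 7.64 ± 1.96 in females. The growth hormone receptor gene Ghr, at 52.4 ± 9.98 and 46.0 ± 8.73 FPKM, did not pass (adjusted p = 0.43). Over the 49 tested genes of steroid metabolism and hormone receptors, 6 were higher in males and 9 in females (30.6% called, beside 9.92% of all genes). The counts were 6 and 5 without male replicate 5, and 4 and 4 without female replicate 5.

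Genes known as androgen-responsive in mouse kidney were called in both directions in the rat cortex, and their directions in mouse were not compared. Of 30 tested, 6 were higher in males, 8 higher in females and 16 did not pass, with a median of 0.17. The share called was 46.7%, beside 9.92% of all genes. Oat, ornithine aminotransferase, was at 1747, 2949, 1651, 1799 and 2513 FPKM in females, and ranged from 286 through 361 to 503 FPKM in males. The lowest female was above the highest male, and the difference was -2.50 (SE 0.24, adjusted p = 2.2e-09). The carboxylesterase gene Ces1d was at 10.5 ± 2.52 FPKM in males and 55.9 ± 18.2 in females. Odc1, the rate-limiting enzyme of polyamine synthesis, was at 110 ± 38.9 FPKM in males and 221 ± 75.8 in females (adjusted p = 0.044), and lost its call without any of 7 single libraries, with an adjusted p up to 0.140.

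Called genes of fuel metabolism were mostly higher in females, beside 5.92% of all genes called higher in females and 4.00% in males. Of 47 genes of fatty acid oxidation and ketogenesis, 14 were higher in females and 3 in males, with a median of -0.25, or 10 and 3 without male replicate 5, and 12 and 1 without female replicate 5. Acox2, a peroxisomal oxidase of branched-chain acids, was at 3.54 ± 1.97 FPKM in males and 19.3 ± 5.52 in females, and Crot, which moves medium-chain acyl groups out of peroxisomes, at 27.7 ± 3.21 and 52.9 ± 8.58. Of 28 genes of ammonia, acid-base and gluconeogenesis, 8 were higher in females and 1 in males, and none in males without either replicate 5. Sds, serine dehydratase, was at 2.20 ± 0.897 FPKM in males and 11 ± 6.22 in females, and the alanine aminotransferase gene Gpt at 4.70 ± 0.696 and 10.2 ± 2.65. Of 45 genes of amino acid and creatine metabolism, 11 were higher in females and 2 in males, among them Oat and Cth, the cysteine-producing lyase, at 56.4 ± 28.2 and 124 ± 42.5 FPKM. Of 39 genes of lipid and cholesterol synthesis, 5 were higher in females and 1 in males (15.4% called, beside 9.92% of all genes). Fdft1, squalene synthase, was at 36.0 ± 0.866 FPKM in males and 96.8 ± 21.5 in females. Apart from fuel metabolism, 2 of 41 antioxidant and glutathione genes were higher in females and 1 in males (7.32%). Without female replicate 5 the counts were 1 and 0. Sod3, extracellular superoxide dismutase, was at 287 ± 33.3 FPKM in males and 727 ± 79.5 in females. Nuclear genes of oxidative phosphorylation had 2 of 36 called (5.56%), both higher in females, with a median of -0.16. Without male replicate 5, 1 was called in males and none in females, and without female replicate 5 none was called.

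Of 33 genes of sodium, phosphate and glucose transport in the proximal tubule, 28 did not pass, 4 were higher in females and 1 in males. The share called was 15.2%, beside 9.92% of all genes. Slc9a3, the apical sodium-hydrogen exchanger NHE3, was at 27.2 ± 4.75 FPKM in males and 30.3 ± 3.80 in females, and Slc34a1, the main phosphate carrier, at 1656 ± 320 and 1476 ± 249, and neither passed (adjusted p = 0.63 and 0.59). Slc2a2, the basolateral glucose exit carrier, was at 65.2 ± 9.36 FPKM in males and 42.1 ± 8.25 in females and was called, without overlap. Slc5a10, a mannose and fructose carrier, was at 67.3 ± 11.1 and 119 ± 18.0 FPKM, called in the female direction. Genes of receptor-mediated protein uptake and the lysosome were called in that direction in 6 of 31 and in the male direction in none. Over all genes these shares were 5.92% and 4.00%. Cubn, the receptor cubilin, was at 63.2, 69.0, 56.7, 52.2, 66.8 and 63.5 FPKM in males and 103, 117, 140, 124 and 112 in females, a difference of -0.94 with no overlap (SE 0.15, adjusted p = 4.4e-05). Ctsl and Ctsh, lysosomal proteases, were at 2668 ± 426 and 1107 ± 51.3 FPKM in females against 1621 ± 216 and 629 ± 117 in males.

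In the distal nephron, where aldosterone and dietary potassium act, most listed genes did not pass, and main sodium chloride carriers were not called. Of 15 thick ascending limb genes, 2 were higher in females and 0 in males, or 1 and 0 without male or female replicate 5. Of 20 genes of the distal convoluted tubule and its kinases, 3 were higher in females and 1 in males. Without male or female replicate 5 these were 2 and 1. Over all genes, 5.92% were called higher in females and 4.00% in males. Slc12a3, the thiazide-sensitive cotransporter NCC, was at 112 ± 17.9 FPKM in males and 113 ± 21.4 in females (difference -0.01, SE 0.22), with a sign that turned under quantile normalization (0.08) and with library sums of reads (0.04). Slc12a1, the loop diuretic target NKCC2, was at 87.9 ± 26.8 and 126 ± 39.5 FPKM and did not pass (adjusted p = 0.21). Stk39, the kinase SPAK that activates both carriers, was at 7.94 ± 1.09 FPKM in males and 11.2 ± 2.10 in females (adjusted p = 0.006), while Wnk1 and Wnk4, kinases upstream of it, were not called (adjusted p = 0.84 and 0.87). Egf, made in the thick limb and distal convoluted tubule, was at 26.6 ± 10.81 and 58.0 ± 16.9 FPKM, a difference of -1.17.

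Of the 3 subunits of the epithelial sodium channel ENaC, the alpha subunit alone was called. Scnn1a ranged from 15.8 through 18.3 to 23.7 FPKM in males, and was at 23.9, 36.1, 28.7, 31.3 and 30.2 FPKM in females. The lowest female was just above the highest male, and the difference was -0.66 (SE 0.16, adjusted p = 0.0058). Scnn1b and Scnn1g were at 17.3 ± 1.38 and 14.9 ± 2.27 FPKM in males and 22.5 ± 5.95 and 18.4 ± 4.04 in females, with adjusted p of 0.23 and 0.34. Aqp2, the vasopressin-regulated water channel, was at 65.4 ± 12.8 and 139 ± 82.7 FPKM and did not pass (adjusted p = 0.085). Nr3c2, the mineralocorticoid receptor gene, was at 5.82 ± 1.06 and 5.89 ± 0.362 FPKM, and Sgk1, its target kinase, at 51.5 ± 23.9 and 42.6 ± 20.6, neither called.

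Of 26 potassium channels and pumps tested, 3 were higher in females (beside 5.92% of all genes) and 1 in males, and 22 did not pass. Kcnj1, the secretory channel ROMK, was at 66.4 ± 11.7 FPKM in males and 93.8 ± 20.1 in females and just missed the threshold (adjusted p = 0.056), and the basolateral channel genes Kcnj10 and Kcnj16 did not pass (adjusted p = 0.47 and 0.10). Kcnk1, a background channel, was at 14.5 ± 1.74 and 24.8 ± 6.36 FPKM, a difference of -0.73, and its adjusted p was 0.0535 without female replicate 5. Atp12a, the colonic H,K-ATPase that reabsorbs potassium in exchange for protons, ranged from 0.222 through 0.611 to 0.811 FPKM in males, and was at 3.24, 5.04, 1.46, 3.89 and 1.61 FPKM in females. No male reached the lowest female, and the difference was -1.65 (SE 0.38, adjusted p = 0.0038). Rhcg, an ammonia channel of collecting duct cells, was at 55.7 ± 7.93 and 80.8 ± 9.27 FPKM without overlap, but its call was lost without any of 6 single libraries, with an adjusted p up to 0.103. Over the lists, 3 of 21 principal cell genes, 4 of 21 intercalated cell genes and 3 of 26 potassium channels and pumps were higher in females, and 0, 0 and 1 in males, with medians of -0.32, -0.46 and 0.03. Without male replicate 5 the numbers in the female direction were 1, 3 and 3, and without female replicate 5 they were 1, 3 and 1.

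Summed markers of collecting duct cells differed between the sexes beside these genes. Hsd11b2, whose call was lost without some single libraries, and Aqp2, which was not called, held most of the principal cell sum. The 6 matched principal cell markers summed to 275 to 377 FPKM in males and 421 to 777 in females, with 2 of 6 called, and the 6 intercalated cell markers to 100 to 163 FPKM in males and 172 to 224 in females, with none called. Neither sum overlapped between the sexes (exact permutation test, two-sided, p = 0.00433 for each, the smallest that 6 against 5 libraries allow, and 0.0346 adjusted over 16 lists). The other 14 marker sums did not pass. With 1 library left out, 2 sums at the smallest possible p reach only 0.0635 or 0.0762 after adjustment, so passing or not says nothing of stability. The log2 ratio of the group means then ranged from -0.74 to -0.49 for principal and from -0.49 to -0.37 for intercalated cell markers. Sums for the thick ascending limb were 767 to 1591 FPKM in males and 1080 to 2379 in females (exact permutation p = 0.0693, adjusted 0.199). The part of the marker shift in the differences of Scnn1a, Rhcg and Atp12a was not tested.

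**Figure D3:**
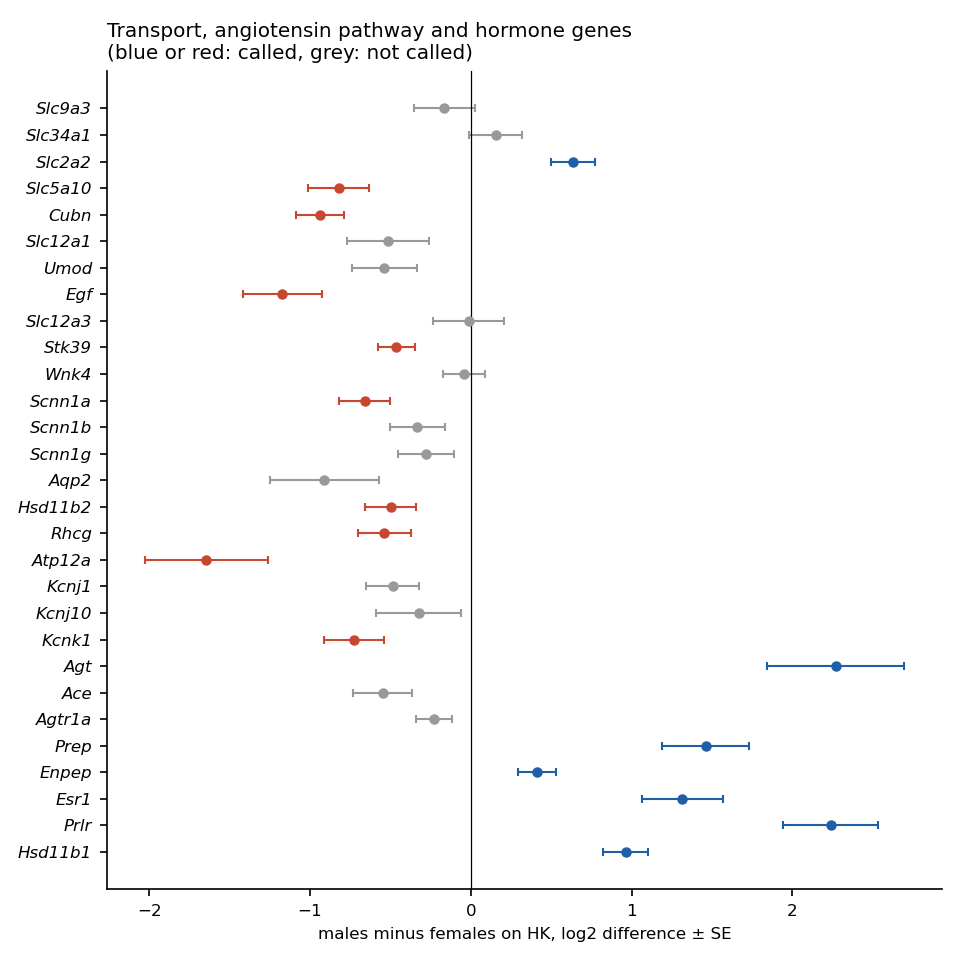
Sex difference on HK, males minus females, of genes of transport, the renin-angiotensin system and hormone action, as log2 differences with SE (points and bars). Agt and Prlr lie furthest to the right, Atp12a and Egf furthest to the left, and Slc12a3 and Wnk4 lie near 0.

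In the renin-angiotensin system the substrate and other peptidases differed, while Ace and the receptor did not pass. Agt, angiotensinogen, ranged from 13.7 through 29.7 to 50.4 FPKM in males, and was at 4.99, 4.82, 3.78, 5.93 and 6.0 FPKM in females. All males lay above all females, by 2.27 on the log2 scale (SE 0.43, adjusted p = 0.00033), or 4.82-fold, and by 2.45 without male replicate 5. Prep, a peptidase that forms angiotensin-(1-7), was at 42.5 ± 18.9 FPKM in males and 13.7 ± 1.26 in females (adjusted p = 0.00027). Enpep, aminopeptidase A, which removes the first residue of angiotensin II, was at 62.7 ± 6.87 and 46.8 ± 3.82 FPKM, and its adjusted p was 0.0741 without female replicate 5. Ace, the converting enzyme, was at 1.81 ± 0.580 and 2.80 ± 0.434 FPKM (adjusted p = 0.054), and Agtr1a, the receptor of angiotensin II, at 19.8 ± 2.37 and 23.2 ± 1.77 (adjusted p = 0.19). Edn1, endothelin 1, was at 3.31 ± 1.02 FPKM in males and 1.73 ± 0.443 in females and was called. Of 32 renin-angiotensin and vasoactive genes, 4 were higher in males and 1 in females, or 3 and 0 without female replicate 5. With all libraries 15.6% were called, beside 9.92% of all genes.

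Among immune and injury genes, macrophage genes were called most often, and that count rested on single libraries. Of 28 macrophage and myeloid genes, 10 were higher in males and none in females, and 1 and 0 without male replicate 5, or 3 and 0 without female replicate 5. Csf1r, the macrophage growth factor receptor, was at 35.8 FPKM in male replicate 5, 19.5 to 24.0 in the other males and 11.6 to 21.4 in females, and its difference went from 0.53 to 0.41 (adjusted p = 0.028 and 0.096) without that library. Summed macrophage markers were 157 to 287 FPKM in males and 121 to 173 in females, with the highest in replicate 5 and 3 of 7 tested markers called. Of 22 lymphocyte genes 3 were higher in males, of 31 interferon response genes 4, and of 28 tubular injury genes 4, or 2 without female replicate 5, beside 4.00% of all genes in that direction and 9.92% in either. None of the members of these 3 lists was called higher in females. Sox9, a factor of tubular repair, was at 11.8 ± 2.98 FPKM in males and 2.89 ± 0.925 in females, without overlap, and its difference of 1.86 was 1.87 without male replicate 5. Prom1, a surface marker of repairing tubule cells, was at 35.5 ± 11.2 and 13.4 ± 3.42 FPKM. Havcr1 and Lcn2 were not called (adjusted p = 0.85 and 0.78), and female replicates 1 and 4 had 55.6 and 75.3 FPKM of Havcr1 against 23.9 to 33.6 in the other females.

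Among all genes tested, 4.00% were called higher in males, 5.92% in females and 9.92% in either. Of 32 genes of complement and coagulation, 7 were called higher in males and 2 in females, or 4 and 1 without female replicate 5. F2, prothrombin, was at 11.6 ± 2.52 FPKM in males and 2.36 ± 0.718 in females (difference 2.09, adjusted p = 8.6e-08), and F3, tissue factor, a membrane receptor that starts coagulation, at 56.5 ± 8.03 and 34.7 ± 4.12. C4b was at 65.9 FPKM in male replicate 5 and 20.5 to 31.2 in the other males, and its adjusted p was 0.116 without that library. Of 29 proliferation genes, 4 were higher in males (13.8%), or 2 without either male or female replicate 5. Kif11, a spindle motor, was at 18.4 ± 2.37 FPKM in males and 11.1 ± 1.78 in females (adjusted p = 0.00028). Of 40 matrix and fibrosis genes, 2 were called, both higher in males (5.0%), and none without either library.

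Most sex differences called on HK had the same direction on the normal diet. Of the 1372 genes called on HK, 1343 had the same direction on NK (97.9%), 1019 were also called there in that direction, and 1 was called in the opposite one, with a correlation of 0.96 across these genes (a description, since genes of a library are not independent). Over all genes, 74.4% had the same direction on HK and NK, with a correlation of 0.74. On NK, 21.0% of all genes were called, 9.82% above and 11.2% below 0. No gene passed the test of a difference between the sex differences on HK and NK (0%, limma, 784 genes at an unadjusted p under 0.05, and 0 with voom). Within a sex, HK against NK likewise called 0 genes in males (1052 unadjusted) and 0 in females (367), comparisons that share the HK libraries. For the 98 male-higher genes over 2-fold the median difference was 1.46 on HK and 1.31 on NK, and for the 162 female-higher ones -1.502 and -1.48. The choice of these genes on HK favours larger values there.

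Against the potassium-deficient diet, the sex difference changed in a part of the genes. A difference of the sex difference was called in 755 genes (5.46%), 419 above 0 (3.03%) and 336 below (2.43%). Of the 755, 510 were called for sex on DK and not on HK, 115 on HK and not on DK, and 117 on both. Of the 819 called higher in females on HK, 146 were called for the change, 118 smaller and 28 larger on DK. For the 162 of them over 2-fold, the median went from -1.502 on HK to -0.80 on DK, and 67 were called for the change, 61 of them smaller on DK. For the 98 higher in males, the medians were 1.46 and 1.27, and 23 were called, 22 of them smaller on DK. Of the genes called on HK, 1221 of 1372 (89.0%) kept their direction on DK, 38 were called in the opposite direction, and the correlation across genes was 0.77. Over all genes, 72.2% had the same direction on HK and DK, with a correlation of 0.55. On DK, 34.4% of all genes were called, 16.1% above and 18.3% below 0. Among the 15 largest differences in each direction, 11 female-higher and 4 male-higher ones were called for the change. Sets chosen by their HK calls, here as above, favour smaller differences on DK, since the change uses the same HK libraries.

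The group means show in which sex the levels differed between diets. Akr1b7 was at 68.2 ± 44.8 FPKM in HK females, 57.1 ± 35.7 in NK females and 4.42 ± 2.85 in DK females (SD, n = 5, 6 and 6), and at most 0.0235 on average in any male group. The change in its sex difference was -3.90 (SE 0.57, adjusted p = 5.5e-05), a call that voom on recovered reads did not make (-4.66, adjusted p = 0.389). Oat was at 2132 ± 570, 2226 ± 398 and 530 ± 149 FPKM in the same female groups and at 375 ± 91.6, 341 ± 144 and 383 ± 103 in males. Nkx1-2 was at 25.9 ± 3.34, 26.1 ± 4.58 and 2.64 ± 0.952 FPKM in females. Its male means were 1.76, 1.93 and 1.47 FPKM. Slc22a7 was at 76.2 ± 25.3, 61.5 ± 24.1 and 28.8 ± 14 FPKM in females. Oacyl and Fsd1l went from 13.6 ± 2.24 and 15.3 ± 5.05 FPKM in HK females to 0.115 ± 0.0447 and 1.57 ± 1.10 in DK females.

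Some P450s that were higher in males on HK had a smaller sex difference on DK. Cyp2d3 was at 0.253 ± 0.122 FPKM in HK females and 3.88 ± 1.56 in DK females, against 14.7 ± 6.07 and 13.3 ± 3.37 in males. Cyp2d5 was at 0.945 ± 0.609 and 7.35 ± 3.46 FPKM in females, against 24.2 ± 6.35 and 20.5 ± 5.24 in males. Their sex differences on HK exceeded those on DK by 2.54 and 2.62 (adjusted p = 0.00014 and 7.6e-05). Dhrs7l1 and Slco1a1 were not called for a change, at 0.09 and 0.29 (adjusted p = 0.95 and 0.85). For Tat and Sds the female excess was larger on DK. Tat, tyrosine aminotransferase, was at 0.922 ± 0.600 and 42.1 ± 15.5 FPKM in HK and DK females, and Sds at 11 ± 6.22 and 134 ± 92.3. Male means were 0.139 and 0.594 FPKM for Tat and 2.20 and 2.45 FPKM for Sds. The changes were 4.31 and 3.27 (adjusted p = 2.1e-08 and 0.00074).

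Sample numbers in the labels, of unstated meaning, are in the 300s for all HK libraries but in the 200s for 5 of 6 male DK and 4 of 6 female NK libraries. In the 300s alone, 98.3% of the genes called on HK had the same direction on NK and 86.2% on DK. With the 300s alone, 1 male DK library remained, assumed to vary like the other groups, and 37 genes were called for the change from DK. All 755 genes kept their direction in that fit, with a median size of 0.70 against 0.83. These genes were chosen by the same contrast, and the fit kept all HK and all female DK libraries. The shared direction was thus largely set in advance and says little on the number series. Scaling by library sums gave 1039 calls, 283 above and 756 below 0, with the median over all genes at -0.13. The sex difference on DK and the number series can thus be separated only in part.

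**Figure D4:**
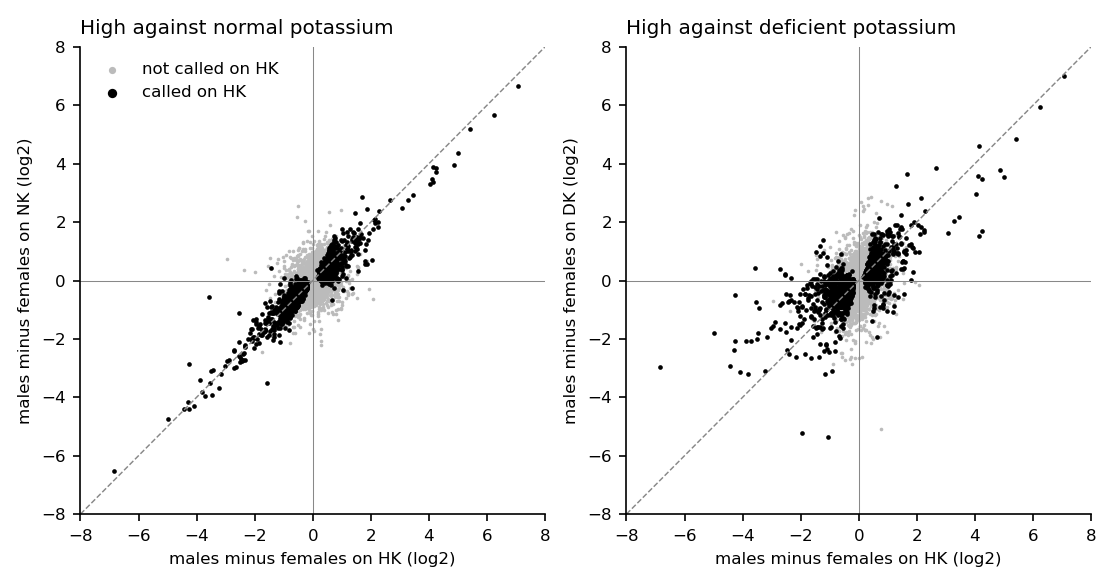
Sex difference of each of 13824 genes on HK (horizontal) against that on NK and on DK (vertical), in log2, with the 1372 genes called on HK in black and the line of equal values dashed. Black points follow the line on NK, with 97.9% in the same direction, and scatter more on DK, with 89.0%. Over all genes these shares were 74.4% and 72.2%.

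**Figure D5:**
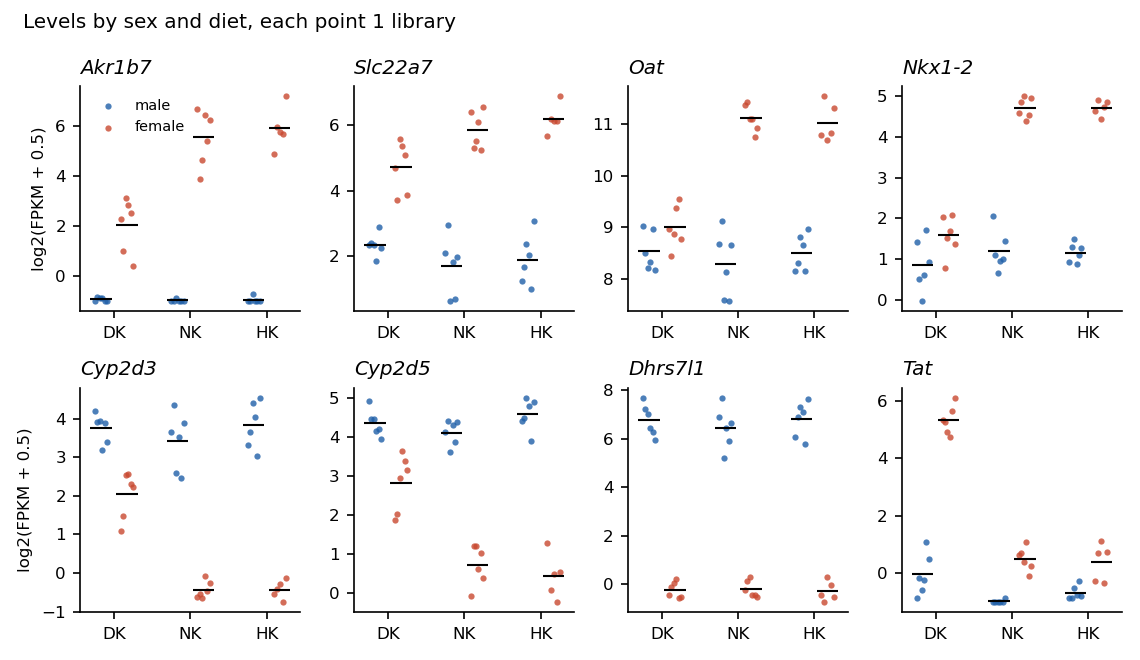
Levels of 8 genes by sex and diet as log2(FPKM + 0.5), each point 1 library and each bar a group mean. Female libraries on DK are low for Akr1b7, Oat and Nkx1-2 and high for Cyp2d3, Cyp2d5 and Tat, while the change of 0.09 for Dhrs7l1 was not called.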

How the data were processed

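Kidney cortex messenger RNA of 35 libraries was sequenced after poly-T capture, per the labels' protocols, which describe directional and non-directional libraries without saying which was made, so reads of overlapping antisense genes cannot be told apart. The submitters' processing notes name featureCounts 1.5.0-p3, StringTie 1.3.3b, HISAT2 2.0.5 and fastp, and no source used here names a genome build. The authors deposited FPKM values with gene lengths for 32545 genes. Each value multiplied by length gave whole reads within 0.01 read, and the deposited scaling between libraries was kept.

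Groups were taken from the labels. Values were tested as log2(FPKM + 0.5) in limma 3.58.1 (R 4.3.3) with all 35 libraries, 6 group means and a variance trend. Benjamini-Hochberg adjustment ran over 14264 genes, with a threshold of 0.05 and no fold minimum. Fold changes are on the log2(FPKM + 0.5) scale, which understates those of low genes. Contrasts were males minus females on each diet and the difference of these between HK and NK or DK. Marker sums were compared by exact permutation with scipy 1.17.1 in Python 3.11.15. The fit was tested on simulated data. Replicate numbers did not pair the libraries (correlations of deviations -0.06 to 0.06). Between the 25 pairs of HK libraries within a group, chi-square per gene was 8.89 to 65.1, so none was a copy.

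Named genes were the 15 largest called differences in each direction among genes that have a symbol and average 2 FPKM or more in the higher sex, up to 4 called members per list, the 5 largest in each direction for a changed sex difference, 40 transport and hormone genes whatever their p, of which Kcnma1 did not reach the filter, and the genes at the threshold. The text names a part of these, and a few single-gene values are left out. Of 1168 entries in 31 lists, 945 were tested. Members, lists and the motifs were chosen with earlier results of these data known. Motifs were searched in RefSeq promoters of GRCr8. Alternatives covered the pseudocount, filters, scaling, weights, the libraries fitted, voom on recovered reads, a replicate block and leaving out each HK library. List counts without male or female replicate 5 were chosen after seeing the data.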

Additional observations from a re-analysis of the deposited data

Results flagged for a closer look

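Of 256 groups of values compared, 19 held a library far from the rest of its group by Dixon's criterion, which chance exceeds in about 1 in 20. Male replicate 5 accounted for most of them. It was high in Havcr1 (107 FPKM), Lcn2 (113), C4b (65.9), Cd44 (21.2), Csf1r (35.8), Tgfb1 (37.0) and Col24a1 (2.18), and low in Lrpap1 (155, against 210 to 243 in the other males). Its summed FPKM of fibroblast (446), smooth muscle and mesangium (263) and macrophage markers (287) were the highest of the males, and that of endothelial markers (217) the lowest. Male replicate 3 had 0.0938 FPKM of Akr1b7, where the other males had 0, and was low in Igf1 (1.90).

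Among females, replicate 2 was high in Ckmt1b (62.7 FPKM). Replicate 3 was high in Ace (3.56 FPKM) and Slc22a22 (0.852), and low in summed endothelial markers (217). Replicate 4 had 0.0369 FPKM of Cyp2c11, where the other females had 0.

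The sex difference differed between HK and DK in 36 genes named in the text (limma, adjusted p under 0.05). On the log2 scale, HK minus DK, the values below 0 were Akr1b7 -3.90, Oacyl -3.08, Nkx1-2 -2.83, Fsd1l -2.75, Rup2 -2.63, Tcf24 -2.51, Oat -2.04, Slc22a7 -1.94, Acox2 -1.89, Stc2 -1.86, Angpt2 -1.82, Ces1d -1.68, Akr1c14 -1.59, Armc3 -1.53, Col17a1 -1.51, Col6a3 -1.45, Cyp2b2 -1.41, Ly6i -1.41, Scnn1g -0.79, Ctsh -0.68. The values above 0 were Abcg2 0.68, Edn1 0.85, Hsd11b1 0.93, Cyp4a2 1.03, F2 1.11, Ace 1.19, Gpt 1.41, Mbl1 1.45, Cyp2c13 1.47, Cyp2d3 2.54, Cyp2d5 2.62, Sult1a1 2.65, Abcb11 2.73, Sds 3.27, Tat 4.31, Rbp4 5.86. For Rbp4, Sult1a1 and Abcb11 no sex difference was called on HK, and Rbp4, a retinol carrier, was at 2.02 ± 0.893 FPKM in HK females and 502 ± 241 in DK females (SD, n = 5 and 6). The Cyp4a2 value of 1.03 belongs to the entry higher in males, ENSRNOG00000030154, and the other entry was not called for the change. The Rup2 change rested on DK libraries, since HK libraries held 2 reads in all.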

How the results depend on the processing

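The count of sex differences on HK was 1133 to 1570 under other pseudocounts, filters, scalings, sets of libraries and voom, 2378 with weights per library, and 817 to 1455 with 1 library left out, the lowest without female replicate 5. The cause was not tested. The replicate block gave 1309 calls on HK and 639 for HK minus DK, with 1231 and 624 of them shared with the 1372 and 755. Under it C4b, Ckmt1b, Hsd11b2 and Odc1 were not called on HK, and Ace was (adjusted p = 0.0432). Weights per library called 6 genes for HK minus NK, where the others called 0. For HK minus DK, weights gave 1449, the libraries of the 300s alone 37 (fewer samples), and leaving out 1 library 606 to 785. Marker lists that passed numbered 0 to 4 with 1 library left out, against 2, in designs where 2 lists at the smallest p cannot pass. Of 96 called genes named, 74 kept their call under every alternative run, 22 lost it under at least 1, and none reversed. Among genes that were not called, Slc12a3 turned to 0.0833 under quantile normalization, 0.0374 with library sums and 0.0383 with weights. With 1 library left out, it ranged from -0.130 to 0.0595 and Havcr1 from -0.491 to 0.0689. Voom did not call Akr1b7, Rup2 and Abcb11 for HK minus DK (adjusted p = 0.389, 0.0520 and 0.0731). The planned edgeR and DESeq2 fits were not run. Depth limits genes near 0 FPKM, whose fold depends on the pseudocount.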

Other observations

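Genes outside the autosomes were measured too. Of 435 X-linked genes tested, 15 were higher in males and 23 in females, or 8.74%, close to the autosomal share of 9.92%. Of 34 mitochondrially encoded genes, none was called. Clock genes were called in 2 of 18 members (11.1%, beside 9.92% of all genes), and in none without male or female replicate 5. Per2 was at 14.9 ± 3.56 FPKM in males and 8.71 ± 2.42 in females, and Bhlhe40 at 65.5 ± 10.03 and 47.1 ± 6.05 (SD, n = 6 and 5). Of 26 antigen presentation genes, 2 were called (7.69%, beside 9.92% of all genes), and 1 without either male or female replicate 5. The 2 were B2m and RT1-S3, higher in males at 565 ± 57.9 and 60.6 ± 5.72 FPKM against 452 ± 32.0 and 45.3 ± 2.54. RT1-S3 may share reads with near copies.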
